A study of Tegula funebralis with 16 samples.

Results

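The transcripts described here are assembled contigs of the intertidal snail Chlorostoma (Tegula) funebralis whose names mark them as innate immune recognition proteins. They were chosen by name, for words such as toll, C1q, complement C, lectin, galectin, lysozyme, peptidoglycan recognition, mannose receptor, fibrinogen and scavenger receptor, together with a mean over 16 libraries, in normalised read counts, of no less than 10. The name rule found 143 of 15903 contigs, and 133 of them passed the mean. The 10 that did not were 2 toll-like receptors, 2 C1q-domain contigs, 2 mannose receptors, 2 scavenger receptors, 1 lectin and 1 fibrinogen-domain contig. Closest to that limit were SR_contig_157495, a macrophage mannose receptor 1-like contig with a mean of 10.2, on the inside, and SR_contig_47722, a complement C1q-like protein 2 contig with a mean of 9.4, on the outside. The names were given by similarity and were not tested here. By the wording of the name alone, 119 of the 133 contigs belong to the classes above, among them an endoplasmic reticulum lectin 1-like contig (SR_contig_51052), whose vertebrate namesake takes part in protein quality control inside the cell. The other 14 are tolloid and neuropilin-and-tolloid proteins, a signalling intermediate of the toll pathway and a C1q-binding subcomponent protein, which the name rule caught for their spelling, and they are kept apart below.

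Snails have no antibodies, and microbes are met by receptors and secreted binding proteins that are fixed in the genome. Toll and toll-like receptors sense microbial products, or cleaved host proteins, and signal through adaptor proteins and TRAF proteins to NF-kappa-B factors, which are held inactive by inhibitors of the cactus family. C1q-domain proteins, lectins, galectins and fibrinogen-domain proteins bind sugars on microbes, peptidoglycan recognition proteins and lysozymes bind or cut the bacterial wall, complement C3 tags surfaces, and mannose and scavenger receptors on blood cells take up what is bound. Molluscs are known for large families of C1q-domain and fibrinogen-domain proteins.

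Whole animals were collected from 4 sites in California, Aliso Beach and La Jolla in the south, and Slide Ranch and Pigeon Point in the north. Heat-treated animals were warmed in air from 15 °C by steps of 3 °C to 34 °C within a trial of 5.5 hours, and control animals spent 5.5 hours in air at 15 °C. Each of the 8 combinations of site and treatment has 2 libraries. How many animals went into a library is not labelled. A p-value here therefore speaks of spread between libraries, which may be technical, and in whole-animal RNA fewer cells of a type and less RNA per cell cannot be told apart. Several contigs with 1 name may be copies or pieces of 1 gene, and reads could be shared between them.

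Reads per library ran from 17594009 to 26103215, and the 133 contigs took 0.421% to 1.002% of them. In the northern Pigeon Point and the southern La Jolla, the first heat-treated and first control library stood apart: SR_contig_83 took 16.6% to 39.2% of their reads, against 1.58% to 6.80% in the other 12. A limma fit with a term for these libraries compared each of them with the other library of its site and treatment. In that fit, 49 of the 133 contigs were called higher in these libraries and 20 lower. This is 36.8% and 15%, against 27.2% and 28.6% of all contigs. Marker contigs of muscle, digestive gland, ovary and egg, testis and sperm, mucus and blood were found in every library, none of them at 0. Values below are normalised read counts, that is, reads divided by a library's size factor. Differences are on the log2(value + 1) scale, with a standard error. A contig was called at an adjusted p under 0.05 in limma, fitted to all 14444 contigs with a mean of at least 10.

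Under heat, toll-like and scavenger receptors made up 8 of the 10 recognition contigs called, and all 8 were lower. Over the 4 sites, 10 of the 133 contigs were called, 9 lower and 1 higher in heat-treated than in control animals, which is 7.52% of them, against 4.24% of all tested contigs (2.16% lower and 2.08% higher). The 9 lower contigs were 5 of 23 toll-like receptors, 3 of 7 scavenger receptors and 1 of 5 fibrinogen-domain contigs, and the higher one was a complement C3 contig. Leaving out the 4 libraries that stand apart left 1 library in each group of Pigeon Point and La Jolla. The spread within groups then came from Slide Ranch and Aliso Beach alone. Calls from that fit, here and below, thus say nothing of the spread at the other sites. In it the 10 contigs kept their direction.

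**Figure D1:**
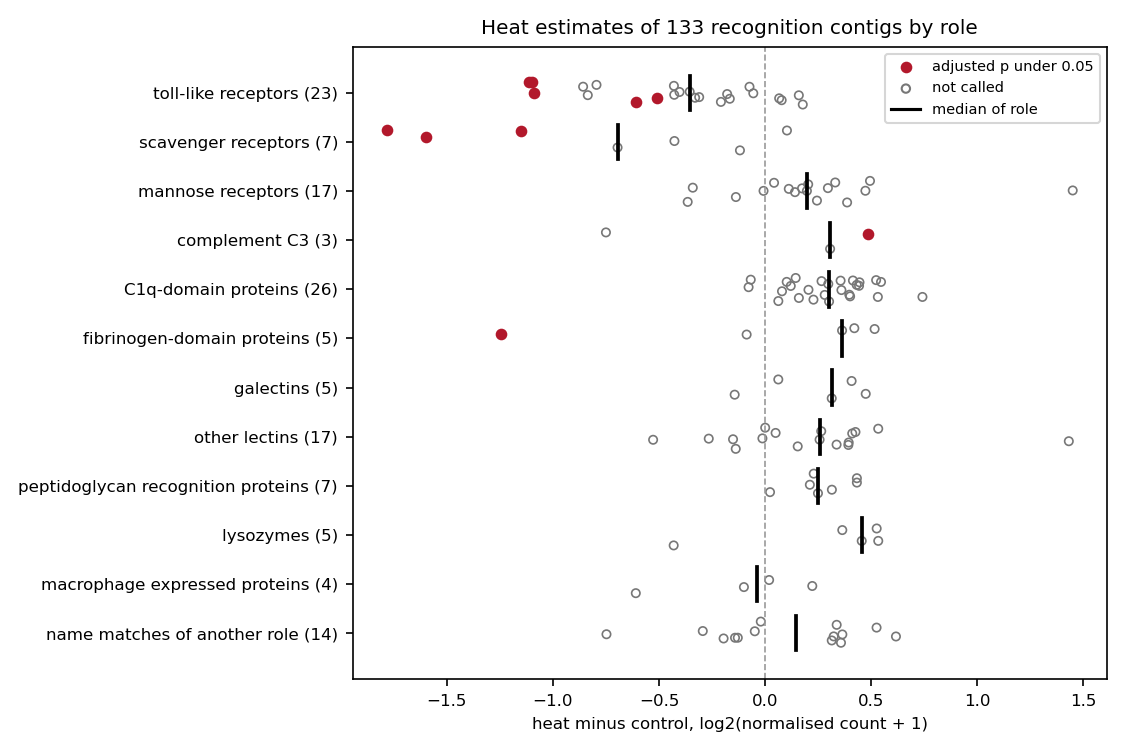
Heat estimates (heat minus control over 4 sites, log2 scale, horizontal axis) of 133 contigs, grouped by role with the number of contigs in brackets. Filled points passed an adjusted p of 0.05, open points did not, and black bars are the medians of a role. Toll-like receptors (median -0.36) and scavenger receptors (median -0.70) lie mostly left of 0, most other roles mostly right of it.

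Among the toll-like receptors, 19 of 23 estimates were below 0 and the median was -0.36, against 0.00 over all contigs tested. At every one of the 4 sites the heat estimate was below 0 for 13 of the 23, or 56.5%, against 18.2% of all contigs. The summed value of the 23 was 2776, 3109 and 4228 (lowest, median and highest) in the 8 heat-treated libraries and 3249.7, 4174 and 5371 in the 8 controls. The sums overlapped between the groups. These receptors span the membrane and carry leucine-rich repeats outside and a TIR signalling domain inside.

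SR_contig_1760_C3.1, named toll-like receptor 4-like after a vertebrate receptor for bacterial lipopolysaccharide, had values of 73.2, 107 and 166 (lowest, median and highest) in heat-treated libraries and 147, 248 and 360.3 in controls. It fell by 1.09 ± 0.17 (adjusted p = 0.0025). Within a site the groups overlapped only at Pigeon Point, where the heat-treated libraries had 103 and 166 and the controls 219 and 147. SR_contig_46886, named toll-like receptor 2, in vertebrates a receptor for bacterial lipoproteins, had 20.5, 37.4 and 44.1 in heat-treated libraries and 53.0, 79.3 and 115 in controls. Every heat-treated library lay below every control, and the contig fell by 1.10 ± 0.17 (adjusted p = 0.0031).

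A second contig of that name, toll-like receptor 2 type-2 (SR_contig_12678_C3.1), had 41.0, 111 and 167 in heat-treated libraries and 151, 229.9 and 288 in controls. It fell by 1.11 ± 0.24 (adjusted p = 0.026), with the groups overlapping only through Pigeon Point. Protein toll (SR_contig_12754), named after the insect receptor that binds the cytokine spätzle, had 251, 349.8 and 651 in heat-treated libraries and 398, 572 and 901 in controls. Its fall of 0.61 ± 0.12 (adjusted p = 0.012) was present at each site without overlap, although the sites' levels differed. Protein toll-like (SR_contig_1749_C3.1) had 228, 307 and 539 in heat-treated libraries and 325, 436 and 755 in controls, and likewise did not overlap within a site. It fell by 0.51 ± 0.12 (adjusted p = 0.038).

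The remaining 18 toll-like receptors did not pass the test, with estimates between -0.86 and 0.18. A further 4 of them had an unadjusted p under 0.05: toll-like receptor 3-like (SR_contig_18091, -0.43, and SR_contig_252_C3.2, -0.36), toll-like receptor 4 (SR_contig_40535, -0.79) and toll-like receptor m (SR_contig_140537, -0.84). Toll-like receptor 1 (SR_contig_14878), whose vertebrate namesake pairs with toll-like receptor 2, had 807, 849 and 983 in heat-treated libraries and 692, 759 and 867 in controls. At each site its heat-treated libraries were above the controls, the reverse of the called receptors, but the estimate of 0.18 ± 0.09 was not called (adjusted p = 0.30). The fit without the 4 libraries that stand apart had only 1 library per group at Pigeon Point and La Jolla. Its calls of toll-like receptors are therefore not given here.

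Scavenger receptors, which bind modified lipoproteins and microbial surfaces, had a median estimate of -0.70, with 6 of 7 below 0 and 5 below 0 at all 4 sites. Scavenger receptor class F member 2 (SR_contig_93658) had values of 9.83 and 10.9 in heat-treated and 17.8 and 27.8 in control libraries at Aliso Beach. At La Jolla it had 36.9 and 21.8 in heat-treated libraries, against 36.2 and 39.1 in controls. At Slide Ranch the heat-treated libraries had 21.3 and 16.6, and the controls 45.3 and 46.5. At Pigeon Point the heat-treated libraries were at 0 and 1.01, the second being a single read, and the controls at 23.2 and 38.9. The contig was thus all but absent from heat-treated Pigeon Point snails, while the groups overlapped at La Jolla. It fell by 1.78 ± 0.26 over the 4 sites (adjusted p = 0.0015), a size that depends on the pseudocount because of the values near 0, and was -1.24 at a pseudocount of 5.

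An endothelial cells scavenger receptor contig (SR_contig_15292) had 18.6, 33.2 and 57.5 in heat-treated libraries and 55.6, 72.8 and 124 in controls. Within each site the heat-treated libraries were below the controls, and the contig fell by 1.15 ± 0.18 (adjusted p = 0.0028). A second contig of that name (SR_contig_123310) had 3.28, 8.79 and 22.0 in heat-treated libraries and 12.2, 24.1 and 53.7 in controls. It too was separated within each site and fell by 1.60 ± 0.35 (adjusted p = 0.023). The other 4 were not called: a cysteine-rich type 1 protein M160 contig (SR_contig_14555) was at 247 ± 43.4 in heat-treated and 334 ± 72.0 in control libraries (SD, n = 8 each), an estimate of -0.43 with an adjusted p of 0.14, and the estimates of the other 3 were -0.70, -0.12 and 0.10.

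The smallest p of all 133 contigs belonged to a fibrinogen-like protein 1-like contig (SR_contig_31166). Fibrinogen-domain proteins of molluscs bind microbes and parasites in the blood, and the vertebrate protein of this name is secreted by the liver. Heat-treated libraries had 77.1 and 87.4 at Aliso Beach, 92.3 and 129.9 at La Jolla, 141 and 119 at Slide Ranch, and 95.5 and 84.7 at Pigeon Point. The controls had 176 and 202 at Aliso Beach, 276 and 310.3 at La Jolla, 278 and 213 at Slide Ranch, and 222 and 288 at Pigeon Point. All 8 heat-treated libraries lay below all 8 controls, and the contig fell by 1.25 ± 0.14 (adjusted p = 1.6e-04). The other 4 fibrinogen-domain contigs had estimates of -0.09 to 0.52 and none was called.

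**Figure D2:**
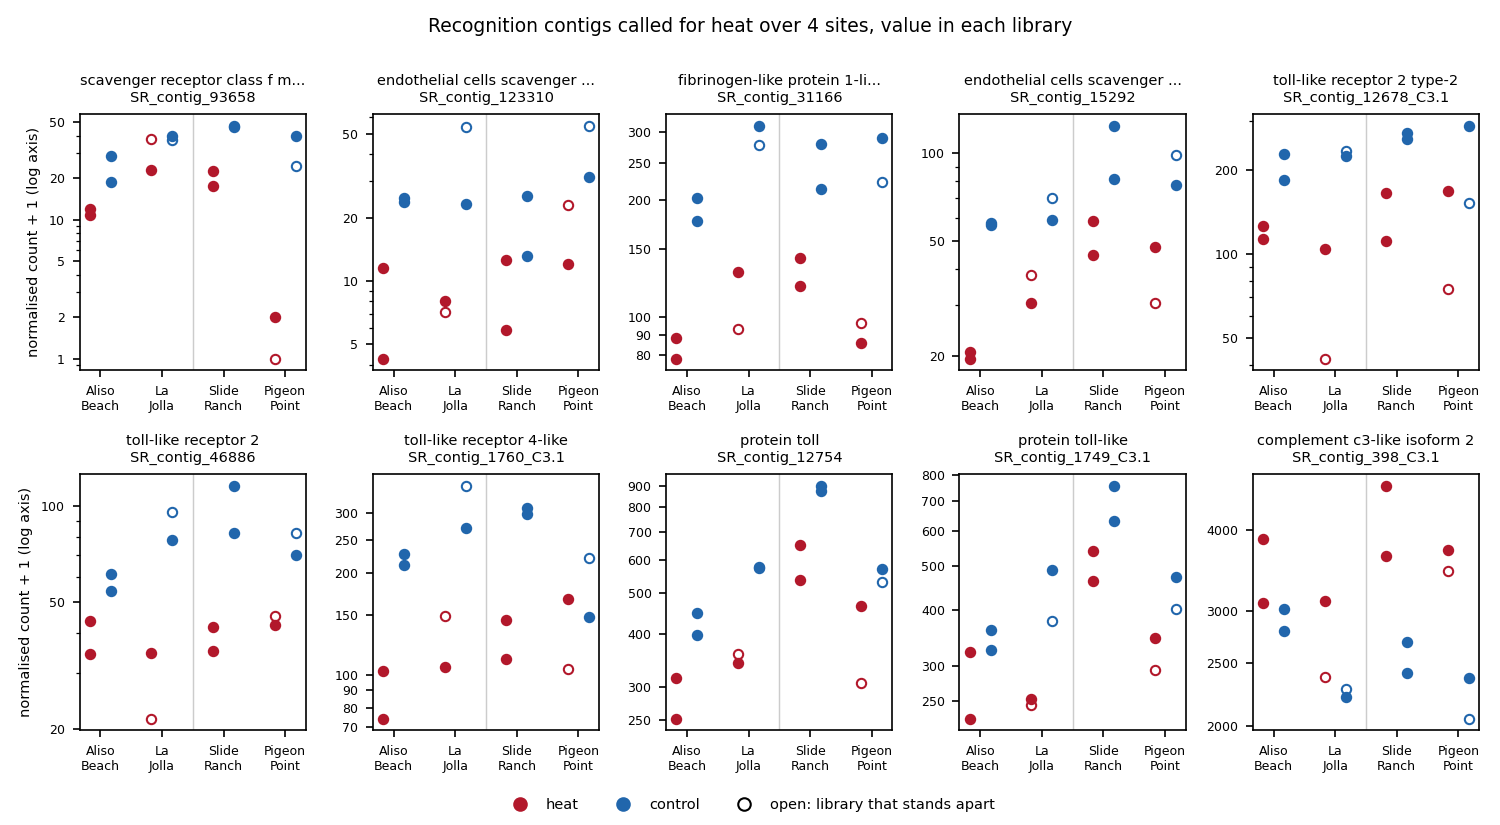
Normalised read counts plus 1 (vertical log axes) in each library for the 10 contigs called for heat over 4 sites, with the southern sites left of the northern ones. Red points are heat-treated libraries, blue points controls, and open points the 4 libraries that stand apart. In 9 contigs the heat-treated points are the lower ones, and in complement C3-like isoform 2 they are the higher ones.

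Complement C3 was the exception in direction. C3-like isoform 2 (SR_contig_398_C3.1) had 2374, 3559.5 and 4685 in heat-treated libraries and 2050.5, 2390.1 and 3023 in controls. Within each site the heat-treated libraries were above the controls, and the contig rose by 0.48 ± 0.11 (adjusted p = 0.026). A second C3 contig (SR_contig_38160) had 1180.2 ± 184 in heat-treated and 947 ± 91.9 in control libraries (SD, n = 8 each), an estimate of 0.31 with an adjusted p of 0.16. The third, C3-like (SR_contig_41083), had 41.3 ± 14.5 in heat-treated and 70.7 ± 28.1 in control libraries, an estimate of -0.75 with an adjusted p of 0.18. Without the 4 libraries that stand apart the estimates were 0.52 and 0.32 for the first pair and -1.06 for the last one.

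Among the C1q-domain proteins, galectins, other lectins, peptidoglycan recognition proteins, lysozymes, macrophage expressed proteins and mannose receptors, no contig was called over all 16 libraries, nor among the 14 name matches of another role. The C1q-domain contigs, of which 24 of 26 had an estimate above 0, had a median of 0.30. Their smallest p was that of a C1q-like protein 2-like contig (SR_contig_13640), at 142 ± 32.2 in heat-treated and 106 ± 28.4 in control libraries (adjusted p = 0.21). All 7 peptidoglycan recognition proteins were above 0, with a median of 0.25. Their smallest p was that of SR_contig_6136, with 2550.1 ± 579 in heat-treated and 1883 ± 418 in control libraries (adjusted p = 0.13).

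Medians were 0.46 for 5 lysozymes, 0.31 for 5 galectins, 0.26 for 17 other lectins, 0.20 for 17 mannose receptors and -0.04 for 4 macrophage expressed proteins, relatives of the pore-forming perforins. Lysozyme 2 (SR_contig_8043) had 12881 ± 5708 in heat-treated and 9040.4 ± 2397 in control libraries (adjusted p = 0.27). A goose-type lysozyme 2 contig (SR_contig_6) lay the other way, at 270.3 ± 94.9 in heat-treated and 358 ± 104 in control libraries (adjusted p = 0.28). C-type lectin 4 (SR_contig_14974) had 944 ± 263 in heat-treated and 641 ± 147 in control libraries (adjusted p = 0.087), and a tandem-repeat galectin (SR_contig_8210) had 2695 ± 991 and 1855 ± 306 (adjusted p = 0.24). In each of these the ranges of the heat-treated and control libraries overlapped.

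With the 4 libraries that stand apart left out, when 10.6% of all contigs were called higher and 8.22% lower, contigs of these roles were called too. They were 3 of 26 C1q-domain contigs higher, 2 of 7 peptidoglycan recognition proteins higher, 5 of 17 mannose receptors higher, 1 of 17 other lectins higher, 2 of 5 fibrinogen-domain contigs higher with 1 lower, 2 of 5 lysozymes higher with 1 lower, and 1 of 4 macrophage expressed proteins higher with 1 lower. For the C1q-domain contigs this is 11.5%, near the share of all contigs, and for the other lectins 5.88%, below it, while the mannose receptors had 29.4%. Of the 17 mannose receptors, 16 then had an estimate above 0. Ovary and egg markers moved in the same direction: 26 of 26 were above 0 over all 16 libraries, with a median of 0.51 and 3 called, and their summed value ranged from 279526 to 679184 in heat-treated and from 211728 to 463377 in control libraries. With the 4 libraries left out, 24 of the 26 were called higher, and 36 of 52 ribosomal proteins. Over all 16 libraries the ribosomal proteins had a median of 0.37, with 3 of 52 higher and 1 lower, against 2.08% and 2.16% of all contigs. Their sums were 895768 to 2642860 in heat-treated and 680904 to 1984403 in control libraries. Blood markers, of which 0 of 7 were called, had a median of 0.23, digestive gland markers 0.27 with 0 of 43 called, and mucus markers -0.27 with 0 of 8 called. Their part in these results was not tested.

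Counted without a model, heat-treated libraries lay below the controls at each of the 4 sites for 6 contigs, or 4.51% of the 133, against 2.54% of all contigs. These were SR_contig_31166, SR_contig_15292, SR_contig_123310, SR_contig_46886, SR_contig_12754 and SR_contig_1749_C3.1. They lay above the controls at each site for 2 contigs, C3-like isoform 2 and toll-like receptor 1, or 1.5%, against 2.44% of all contigs. All 8 heat-treated libraries were below all 8 controls for the fibrinogen-like contig and toll-like receptor 2 (1.02% of all contigs), and above them for 0 of the 133 (1.17% of all contigs).

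For 6 of the 10 contigs the call was kept whichever library was left out: SR_contig_31166, SR_contig_93658, SR_contig_1760_C3.1, SR_contig_15292, SR_contig_46886 and SR_contig_12754. The other 4 kept their direction. Complement C3-like isoform 2 was not called in 8 of 16 such fits (adjusted p up to 0.086), namely without the first Slide Ranch or Aliso Beach heat-treated library, either control of those sites, the first Pigeon Point control or the second La Jolla control. SR_contig_123310 was lost in 7 (up to 0.077), namely without the second heat-treated library of Slide Ranch or Aliso Beach, the second Slide Ranch control, either Aliso Beach control, or the first control of Pigeon Point or La Jolla. SR_contig_12678_C3.1 was lost in 10 (up to 0.081), those without the first Slide Ranch heat-treated library, either Aliso Beach heat-treated library, any control of Slide Ranch, Aliso Beach or La Jolla, or the second Pigeon Point control. SR_contig_1749_C3.1 was lost in 11 (up to 0.11), those without any Slide Ranch library, the first heat-treated library of Pigeon Point, Aliso Beach or La Jolla, either Aliso Beach control, or the second control of Pigeon Point or La Jolla.

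Downstream of the receptors, 48 contigs were named as toll and NF-kappa-B signalling proteins, with a median of -0.17. Of these, 3 were higher and 1 lower under heat, against 2.08% and 2.16% of all contigs. The 3 were inhibitors of NF-kappa-B of the cactus family. SR_contig_12677_C3.1 had 18329, 37898 and 61836 in heat-treated libraries and 69.6, 117 and 317 in controls, a rise of 8.13 ± 0.26. SR_contig_17890_C3.1 had 12452, 20349 and 30900.1 in heat-treated libraries and 194, 334 and 433 in controls, a rise of 6.01 ± 0.13. In both, every heat-treated library was far above every control (adjusted p = 2.7e-09 and 8.6e-11).

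The third, SR_contig_4454, had 3399, 4029 and 5000.2 in heat-treated libraries and 2429, 3159 and 3723 in controls, with overlap, and rose by 0.42 ± 0.10 (adjusted p = 0.045). TRAF3 (SR_contig_5432_C3.1), an adaptor that passes receptor signals on, fell by 1.19 ± 0.22 (adjusted p = 0.010), with 39.3, 69.9 and 119 in heat-treated and 112, 148 and 311 in control libraries. Of 44 contigs named as killing or clotting effectors, 2 were lower and 0 higher, against 2.16% and 2.08% of all contigs. Serpin B3 (SR_contig_103765), a protease inhibitor, had 36.7, 59.1 and 82.0 in heat-treated and 123, 151 and 196 in control libraries, without overlap, and fell by 1.37 ± 0.15 (adjusted p = 1.9e-04). Dual oxidase 2 (SR_contig_25521), which makes hydrogen peroxide at surfaces, fell by 0.74 ± 0.18 (adjusted p = 0.046).

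The study set southern against northern snails under heat, and in each region fewer contigs were called than over all sites. In the south 4 of the 133 were called, all lower, or 3.01%, against 1.73% of all contigs. They were toll-like receptor 4-like SR_contig_1760_C3.1 (-1.33 ± 0.24, adjusted p = 0.013), fibrinogen-like SR_contig_31166 (-1.30 ± 0.19, adjusted p = 0.0035), scavenger receptor SR_contig_15292 (-1.21 ± 0.26, adjusted p = 0.037) and toll-like receptor 2 SR_contig_46886 (-1.12 ± 0.25, adjusted p = 0.046). In the north 3 were called, or 2.26%, against 1.87% of all contigs. They were scavenger receptor class F member 2 SR_contig_93658 (-2.85 ± 0.36, adjusted p = 9.2e-04), SR_contig_31166 (-1.19 ± 0.19, adjusted p = 0.0058) and complement C3-like isoform 2 SR_contig_398_C3.1 (0.70 ± 0.15, adjusted p = 0.037). Libraries of the other region do not enter a region's heat estimate, only the shared spread and the adjustment. With 1 library left out, the 2 contigs lower in the north, and SR_contig_31166 in the south, were always called. The C3 contig was lost in 14 of 16 fits, all but those without a heat-treated La Jolla library, and under TMM scaling and edgeR. In the south SR_contig_1760_C3.1 was lost in 4, without the second heat-treated Aliso Beach library, either control there or the first La Jolla control. SR_contig_15292 was lost in 12, those without any library of Slide Ranch, Aliso Beach or La Jolla, and SR_contig_46886 in 15, all but that without the second heat-treated La Jolla library. The southern call of SR_contig_46886 was also lost without the 4 libraries that stand apart, and the other 3 were kept among 6 contigs called, or 4.51%, against 5.01% of all contigs.

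No contig of the 133 had a called difference between the regions' heat effects in limma, as was the case for all 14444 contigs (0% called). Of the 133, 2 had an unadjusted p under 0.05, and edgeR and DESeq2 called 0. The smallest p belonged to SR_contig_93658, whose fall under heat was smaller in the south than in the north by 2.14 ± 0.51 (limma, adjusted p = 0.9999). The northern value rested on the 2 heat-treated Pigeon Point libraries at 0 and 1.01. The toll-like receptors had a median estimate of -0.40 in the south, with 19 of 23 below 0, and of -0.31 in the north, with 17 of 23 below 0. By site their medians were -0.24 at Aliso Beach, -0.72 at La Jolla, -0.45 at Slide Ranch and -0.45 at Pigeon Point. The scavenger receptors had medians of -0.96 at Aliso Beach, -0.67 at La Jolla, -0.58 at Slide Ranch and -0.35 at Pigeon Point.

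**Figure D3:**
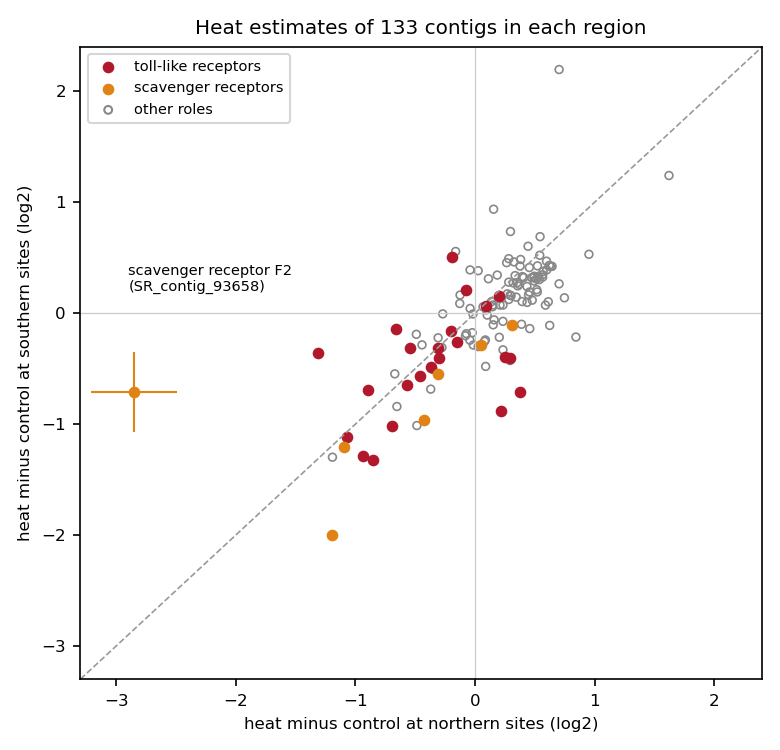
Heat estimates of 133 contigs at southern sites (vertical axis) against northern sites (horizontal axis), log2 scale, with the dashed line marking equal values. Bars on SR_contig_93658 are standard errors. Most toll-like and scavenger receptors lie below and left of 0, and SR_contig_93658 is at -2.85 in the north.

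Levels were also compared between regions apart from heat. Averaged over heat and control, 9 of the 133 contigs were called between southern and northern animals, 1 higher and 8 lower in the south, or 6.77%, against 5.13% of all contigs (3.4% higher and 1.73% lower). Of the 8 lower ones, 2 were toll receptors, 2 macrophage mannose receptors, 1 a macrophage expressed protein, 1 a C1q-like protein and 2 name matches of another role. Of the 23 toll-like receptors 21 had an estimate below 0, with a median of -0.31, against -0.03 over all contigs. Without the 4 libraries that stand apart 33 of the 133 were called, 11 higher and 22 lower, against 20.2% of all contigs (11.7% higher and 8.46% lower). With site and replicate as a random block 0 were called, against 0.713% of all contigs.

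The sialic acid-binding lectin SR_contig_139399, a protein that binds the sugars at the ends of glycan chains, was the contig higher in the south. It had 31.2, 55.7 and 172 (lowest, median and highest) in the 8 southern libraries and 13.6, 20.2 and 33.4 in the 8 northern ones. Its values overlapped only between Aliso Beach and Pigeon Point, and it was higher in the south by 1.62 ± 0.27 (adjusted p = 0.0073). La Jolla had 113 ± 46.7 and Aliso Beach 43.5 ± 10.2, against 18.1 ± 3.22 at Slide Ranch and 25.7 ± 6.79 at Pigeon Point (SD, n = 4 each).

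Protein toll SR_contig_12754 had 251, 378 and 578 in southern and 305, 554 and 901 in northern libraries, and was lower in the south by -0.55 ± 0.12 (adjusted p = 0.024). Protein toll-like SR_contig_1749_C3.1 had 228, 323 and 489 in southern and 292, 468 and 755 in northern libraries (-0.57 ± 0.12, adjusted p = 0.023). Both overlapped between regions, and in both Slide Ranch was the high site, at 741 ± 176 and 597 ± 126. Both are among the 5 toll contigs that were lower under heat.

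Of 8 contigs named macrophage mannose receptor 1-like, after a receptor by which vertebrate macrophages take up mannose-bearing microbes, 2 were called lower in the south and none was called for heat. Of all 8, 6 had an estimate below 0 and 2 above. SR_contig_5165 had 10124, 12161 and 14284 in southern and 12475, 17989.8 and 22250.3 in northern libraries (-0.54 ± 0.13, adjusted p = 0.033). SR_contig_2744 had 826, 1076 and 1323 in southern and 1084, 1746 and 2711 in northern libraries (-0.71 ± 0.16, adjusted p = 0.025). The ranges overlapped slightly in both. C1q-like protein 4 SR_contig_2745_C3.1 had 214, 373 and 638 in southern and 387, 804 and 1159 in northern libraries (-0.97 ± 0.23, adjusted p = 0.038).

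The macrophage expressed protein SR_contig_8584 had 4582, 5617 and 8239 in southern and 6919.7, 8399 and 9343 in northern libraries (-0.48 ± 0.10, adjusted p = 0.020). All 4 macrophage expressed contigs had an estimate below 0, with a median of -0.45, and only this one was called. The 2 of another role were a dorsal-ventral patterning tolloid-like contig (SR_contig_881_C3.1, -1.11 ± 0.21, adjusted p = 0.015) and a neuropilin and tolloid-like contig (SR_contig_1436_C3.1, -0.51 ± 0.11, adjusted p = 0.021). In both, Aliso Beach was the low site. Tolloids are proteases of development and matrix assembly. For none of the 133 did all 8 southern libraries lie on 1 side of all 8 northern ones, against 0.27% of all contigs lower and 0.554% higher in the south.

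Among these 9, only the sialic acid-binding lectin and SR_contig_881_C3.1 were called whichever library was left out. The other 7 lost the call in 6 to 11 of 16 such fits, with the adjusted p over all alternatives reaching 0.21. For each of the 7, at least 1 Slide Ranch and 1 Aliso Beach library ended the call when left out. The first control or the first heat-treated library of Pigeon Point also did so for SR_contig_5165, and that control for SR_contig_2745_C3.1. At La Jolla the first control did so for SR_contig_2744, SR_contig_12754, SR_contig_1749_C3.1 and SR_contig_2745_C3.1, the second heat-treated library for SR_contig_2745_C3.1, and the first heat-treated library and the second control for SR_contig_5165. Ovary and egg markers were higher in the south for 5 of 26 contigs, with a median of 0.50 and sums of 336868 to 679184 in southern and 211728 to 561805 in northern libraries. Muscle markers were higher for 2 of 19, ribosomal proteins for 4 of 52, and blood markers for 0 of 7 (median -0.03), against 3.4% of all contigs. Their part in the regional results was not tested.

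Downstream of the receptors, TRAF6 (SR_contig_43199), the adaptor between toll-like receptors and NF-kappa-B, had 314, 546 and 1394 in southern and 19.5, 139 and 594 in northern libraries. The southern estimate was higher by 2.13 ± 0.39 (adjusted p = 0.013), but the lowest values were those of Slide Ranch. The first Pigeon Point control, at 175.7, was also below every southern library. TRAF6 had a mean of 863 ± 380.3 at La Jolla and 444 ± 95.9 at Aliso Beach, against 60.7 ± 45.3 at Slide Ranch and 419.98 ± 176 at Pigeon Point (SD, n = 4 each), so that Aliso Beach and Pigeon Point lay within their spread of each other. A contig of the antiviral GTPase Mx (SR_contig_16316_C3.1) was lower in the south by -1.40 ± 0.36 (adjusted p = 0.047). Dual oxidase 2 (SR_contig_15256), with 1415, 2256 and 2929 in southern and 2656, 3697 and 4625 in northern libraries, was lower by -0.75 ± 0.15 (adjusted p = 0.016). Dual oxidase maturation factor 1 (SR_contig_1141_C3.1), which brings that oxidase to the membrane, was lower by -0.43 ± 0.10 (adjusted p = 0.031).

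Each region has only 2 sites, so differences among the 4 sites were tested as well, and there 10 of the 133 contigs were called, or 7.52%, against 3.56% of all contigs. Of the 10, 6 were also called between regions. The other 4 were not. Without the 4 libraries that stand apart 37 were called, against 20% of all contigs.

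Protein toll SR_contig_14429 had the smallest p among sites of the 133 contigs (adjusted p = 0.0032). Its heat-treated libraries had 50.7 and 72.1 at Aliso Beach, 8.20 and 18.7 at La Jolla, 149 and 157 at Slide Ranch, and 14.7 and 29.2 at Pigeon Point. Its controls had 86.8 and 104 at Aliso Beach, 17.6 and 45.1 at La Jolla, 111 and 158 at Slide Ranch, and 13.1 and 23.2 at Pigeon Point. Slide Ranch was highest (144 ± 22.0), Aliso Beach next (78.3 ± 22.5), and La Jolla (22.4 ± 15.8) and Pigeon Point (20.1 ± 7.57; SD, n = 4 each) were low and within their spread of each other. Each region thus held 1 high and 1 low site, and the call was kept in every alternative run.

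Scavenger receptor SR_contig_84417, of the endothelial cells type, was low at Aliso Beach. It had 18.9 and 50.3 in heat-treated and 134 and 27.8 in control libraries there, against 169.7 to 354 in the 12 libraries of the other sites (adjusted p = 0.027). Macrophage expressed protein SR_contig_8584 was lowest at Aliso Beach too, at 4815 ± 381, against 7213 ± 994 at La Jolla, 8765 ± 506 at Slide Ranch and 7709 ± 877 at Pigeon Point (adjusted p = 0.022). The same held for SR_contig_881_C3.1, at 656 ± 127 against 2127 ± 586 to 3297 ± 334 at the other sites (adjusted p = 0.0061), and for SR_contig_1436_C3.1, at 227 ± 23.6 against 419 ± 92.4 to 448 ± 50.2 (adjusted p = 0.0097). For both, all 4 Aliso Beach libraries were below the 12 others. How many of all contigs were separated in this way was not counted.

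Toll-like receptor 3-like SR_contig_252_C3.2, whose vertebrate namesake senses double-stranded RNA, was high at La Jolla. It had 586 ± 152 there, against 265 ± 40.8 at Aliso Beach, 352 ± 71.4 at Slide Ranch and 329.9 ± 47.9 at Pigeon Point (adjusted p = 0.029). Only 1 of its La Jolla libraries, the first heat-treated one at 381, lay within the range of the others. Scavenger receptor SR_contig_93658 was called among sites as well (adjusted p = 0.012), with site means of 16.6 ± 8.26 at Aliso Beach, 33.5 ± 7.91 at La Jolla, 32.4 ± 15.7 at Slide Ranch and 15.8 ± 18.8 at Pigeon Point, where the heat-treated libraries were at 0 and 1.01. With site and replicate as a random block, SR_contig_14429 was the only one of the 10 still called, against 0.727% of all contigs. In that limma fit SR_contig_881_C3.1 had an adjusted p of 0.053 and SR_contig_93658 of 0.11. Apart from SR_contig_14429, only SR_contig_93658 and SR_contig_881_C3.1 were called whichever single library was left out. SR_contig_139399 was lost without the second Slide Ranch control, and SR_contig_1436_C3.1 without the first heat-treated library or the second control of Aliso Beach. SR_contig_84417, SR_contig_12754, SR_contig_1749_C3.1, SR_contig_8584 and SR_contig_252_C3.2 were lost in 6 to 10 fits. Each of these fits lacked 1 library of Slide Ranch or Aliso Beach, or, for SR_contig_84417 and SR_contig_252_C3.2, a control of La Jolla. The call of SR_contig_84417 was also lost under edgeR, and its adjusted p reached 0.42 over all alternatives.

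**Figure D4:**
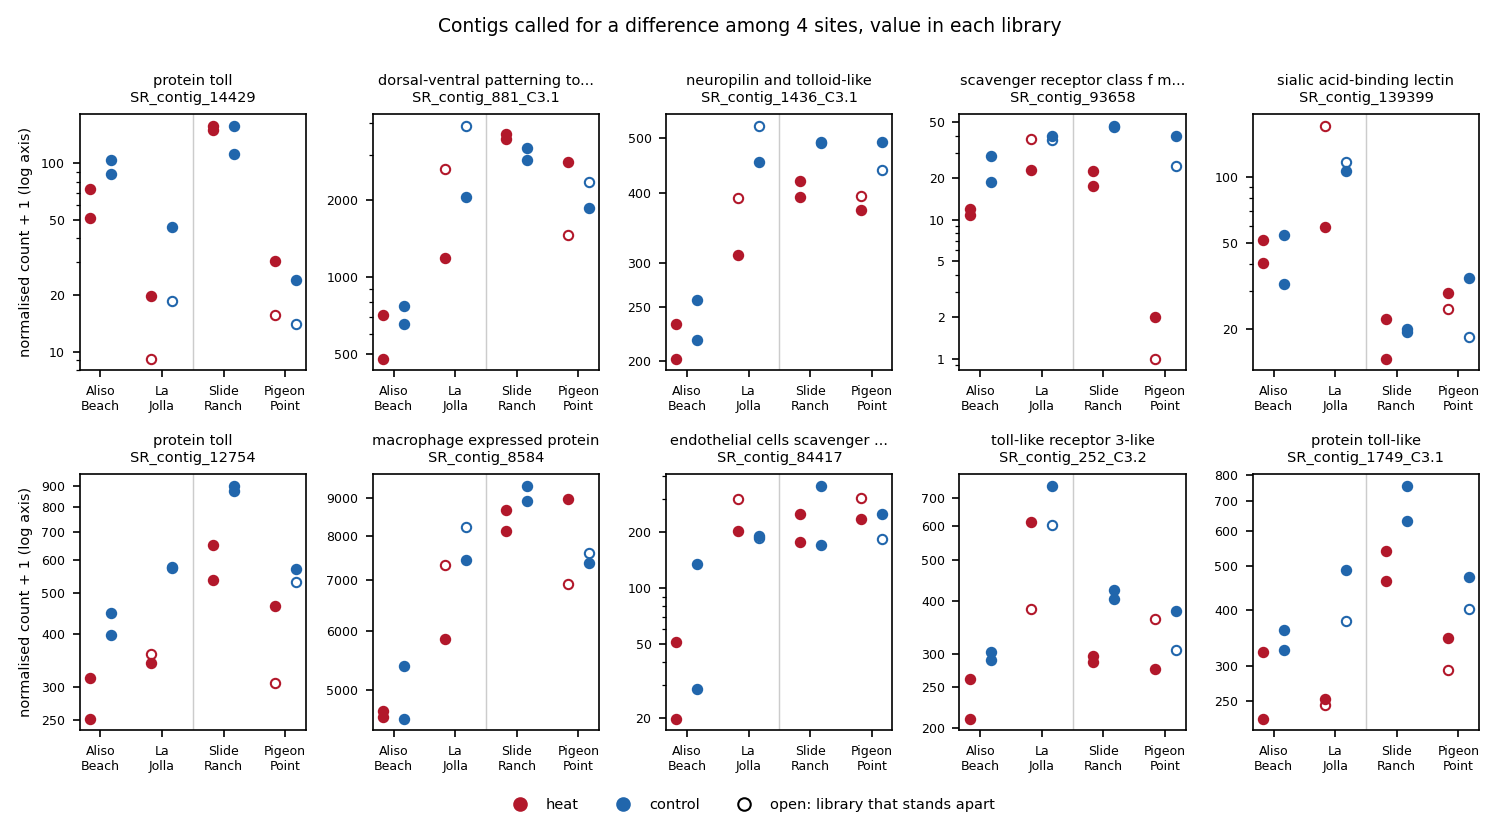
Normalised read counts plus 1 (vertical log axes) in each library for the 10 contigs called for a difference among 4 sites, southern sites left of northern ones. Red points are heat-treated libraries, blue points controls, and open points the 4 libraries that stand apart. Protein toll SR_contig_14429 is high at Slide Ranch and Aliso Beach, and several contigs are lowest at Aliso Beach.

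The toll-like receptors shared a site order that the name rule did not use. Contig names begin with SR, the code of Slide Ranch libraries, and whether reads of all sites mapped to them equally was not tested. On the log2 scale, the mean over heat and control was highest at Slide Ranch for 18 of 23, or 78.3%, against 30.6% of all contigs, and lowest at Aliso Beach for 12 of 23, or 52.2%, against 25.7% of all contigs. With the 4 libraries that stand apart left out, 15 of 23 were highest at Slide Ranch, or 65.2%, against 28.6% of all contigs, and 15 lowest at Aliso Beach, or 65.2%, against 30.3%. In the fit with a term for those libraries 8 of the 23 were called lower in them, or 34.8%, against 28.6% of all contigs. None was called higher, against 27.2% of all contigs.

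Of the 26 C1q-domain contigs, 2 were highest at Slide Ranch, 10 at Pigeon Point and 10 at La Jolla, or 38.5% at each of the last pair, against 22.8% and 22.3% of all contigs. The 4 libraries that stand apart come from these same sites. In the fit with a term for them, 17 of the 26 were called higher, with a median difference of 0.86. With those left out 9 were highest at Slide Ranch, 9 at Aliso Beach, 4 at Pigeon Point and 4 at La Jolla, so the order was not kept. The 4 macrophage expressed proteins were all highest at Slide Ranch, with and without those libraries. The 3 complement C3 contigs were highest there over 16 libraries, and 2 of the 3 without the 4. Of all 133 contigs, 53 were lowest at Aliso Beach, or 39.8%, against 25.7% of all contigs, and without the 4 libraries 48, or 36.1%, against 30.3%.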

How the data were processed

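Whole animals were ground and the RNA of each was extracted, per the labels, and paired reads of 100 bases were sequenced. CASAVA and DESeq appear in the submitters' processing notes. The sources used here do not give the assembler, mapper or counting rule. Per library, the authors deposited a signal: the read count of a contig over that library's size factor. Whole reads were recovered from them, 100% of values being whole multiples of a column's step within 0.01 read. Libraries held 17594009 to 26103215 reads. Counting error weighs most on contigs of few reads, such as SR_contig_123310 and SR_contig_93658, where it was not set apart from the spread between libraries.

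For the tests, log2(value + 1) went into limma 3.58.1, run in R 4.3.3 with its trend option, over 8 groups of 2 and contigs with a mean of at least 10 (14444 of 15903). Differences among sites were tested by limma's moderated F-test. Benjamini-Hochberg adjustment ran over all tested contigs, at 0.05. Sensitivity was tried with pseudocounts of 0.5 and 5, no filter or a mean of at least 50, TMM scaling, edgeR 4.0.16 quasi-likelihood and DESeq2 1.42.0 on recovered reads, a replicate block, each library left out, and, chosen after seeing the data, fits without the 4 libraries that stand apart or with a term for them. The contigs, roles and lists were chosen with earlier results of these data known, so they are described by counts and medians with no test of a list. Roles were taken from names, with every C1q name placed among C1q-domain proteins. Contigs were named where called in a comparison, or where they had the largest mean or the smallest p of a role. The contigs toll-like receptor 3-like SR_contig_18091, toll-like receptor 4, toll-like receptor m and complement C3 SR_contig_38160 and SR_contig_41083 were named after their values were seen. The list of effectors also takes names such as thioester-containing protein and nitric oxide synthase. Within a group, neither library was a second copy of the other, the chi-square per degree of freedom between them being 19.2 to 910.5. Libraries of different groups were not compared in this way. The steps were tested on simulated reads. Figures were drawn with matplotlib 3.10.9.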

Additional observations from a re-analysis of the deposited data

Results flagged for a closer look

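Of 78 sets of 8 heat-treated or 8 control libraries looked at for 39 named contigs, 3 held a library far from the others, where chance gives about 1 in 20. Toll-like receptor 2 (SR_contig_46886) was at 20.5 in the first heat-treated La Jolla library, against 33.3 to 44.1 in the other heat-treated ones. The endothelial cells scavenger receptor SR_contig_84417 was at 27.8 in the second Aliso Beach control, against 134 to 354 in the other controls. The tandem-repeat galectin SR_contig_8210 was at 2534 in the first Pigeon Point control, against 1520.0 to 1926 in the other controls. The first and the last of these libraries are among the 4 that stand apart.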

How the results depend on the processing

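Shares in brackets are those of all contigs called in the same fit. Pseudocounts of 0.5 and 5, no filter, TMM scaling and edgeR moved no count of called contigs by over 1.5 times, and no named contig changed direction in a called comparison under any alternative. A mean of at least 50 left 2 contigs called in the south (1.85%). DESeq2 called 7 in the north (4.01%), 7 in the south (3.52%), 18 between regions (11.1%) and 26 among sites (14.7%). The correlation of deviations between same-numbered libraries was 0.64 at La Jolla, 0.10 at Aliso Beach, 0.69 at Pigeon Point and -0.06 at Slide Ranch. The numbers were not taken to pair the libraries, since the labels give them no meaning and the deviations went together at 2 sites, those of the 4 libraries that stand apart. With the replicate block, 37 contigs were called for heat over 4 sites (21.4%), 15 in the north (7.75%), 10 in the south (6.09%), 0 between regions (0.713%) and, among sites, 1, SR_contig_14429 (0.727%). Without the 4 libraries that stand apart the counts were 36 for heat (18.8%), 15 in the north (9.24%), 6 in the south (5.01%), 33 between regions (20.2%) and 37 among sites (20%). With a term for them they were 41 for heat (24.4%), 15 in the north (10.2%), 13 in the south (8.92%), 36 between regions (22.4%) and 33 among sites (17.6%). Leaving out 1 library gave 6 to 14 for heat (2.79% to 7.59% of all contigs, 6 without either Aliso Beach control), 2 to 4 in the north (1.2% to 2.37%), 1 to 4 in the south (1.12% to 3.58%, 1 without the second Aliso Beach heat-treated library, either Aliso Beach control or the first La Jolla control), 2 to 11 between regions (2.02% to 7.75%, 2 without the second Slide Ranch heat-treated library or the second control of Slide Ranch or Aliso Beach) and 4 to 15 among sites (1.27% to 7.84%, 4 without the second control of Slide Ranch or Aliso Beach). The region by heat count was 0 in every fit. The cause of these shifts was not tested. The fit without the 4 libraries had only 1 library per group at Pigeon Point and La Jolla. With 2 libraries a group, values near 0, as in SR_contig_93658, carry few reads.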

Other observations

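Many recognition contigs differed in the limma fit with a term for the 4 libraries that stand apart. That fit compared each of these with the other library of its site and treatment. Called higher were 17 of 26 C1q-domain contigs, 5 of 5 lysozymes, 4 of 5 galectins, 5 of 7 peptidoglycan recognition proteins, 7 of 17 other lectins and 5 of 17 mannose receptors, and 0 of 23 toll-like receptors, against 27.2% of all contigs. Called lower were 8 toll-like receptors, 3 mannose receptors and 2 C1q-domain contigs, against 28.6% of all contigs. Ribosomal proteins were higher there for 39 of 52 and ovary and egg markers for 20 of 26, and their part in this was not tested. These 3 contigs, chosen after their values were seen, show the size of the difference. A fibrinogen C domain-containing protein 1-like contig (SR_contig_3257_C3.1) had 1466 and 2634 in the first heat-treated libraries of La Jolla and Pigeon Point, and 1981 and 2723 in their first controls. In the other 12 libraries it had 55.3 to 448. A C-type mannose receptor 2 contig (SR_contig_4247) had 2449.9 and 2787 in those heat-treated libraries and 2844 and 2302 in those controls, against 314 to 793 in the other 12. A galectin 4-like contig (SR_contig_953_C3.2), a lectin that binds galactose-bearing sugars, had 1234 and 2528 in those heat-treated libraries and 437 and 1828 in those controls, against 66.3 to 367. These are the 4 libraries in which SR_contig_83 took the largest share of reads.

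Another C-type mannose receptor 2 contig (SR_contig_54863) followed neither these libraries nor the treatments. In heat-treated libraries it had 188 and 131 at Aliso Beach, 0 and 299 at La Jolla, 543 and 311 at Slide Ranch, and 3.67 and 0 at Pigeon Point. In controls it had 39.3 and 0 at Aliso Beach, 155 and 1.70 at La Jolla, 115 and 0 at Slide Ranch, and 2.90 and 248 at Pigeon Point. It was thus at 0 in 1 library of each site and above 100 in others at the same site. One more contig of that name (SR_contig_1923_C3.1) was at 0 in the second heat-treated Slide Ranch library and at 74.6 to 946 in the other 15.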
